A study of Mus musculus with 2 samples.

Results

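The miR-7 family was followed in 2 libraries of sncRNA-Seq (sequencing of small non-coding RNA) made from mouse testes at postnatal day 60. Its members were chosen by name among the counted mature miRNAs: mmu-miR-7a-5p, the 3p arms of both miR-7a hairpins (mmu-miR-7a-1-3p and mmu-miR-7a-2-3p), mmu-miR-7b-5p and mmu-miR-7b-3p. These are 5 of 1905 mature miRNAs, and the species prefix is left out from here on. The control library came from C57BL/6 mice (the strain of the labels, C57BL/6J in the paper) that drank water with the vehicles, DMSO and ethanol. The other library came from C57BL/6 mice exposed through the drinking water to a mixture of endocrine disruptors (EDCs), which held 3 phthalates used as plasticisers (diethylhexyl phthalate, DEHP, dibutyl phthalate, DBP, and benzyl butyl phthalate, BBP) and 2 alkylphenols from detergents (nonylphenol, NP, and octylphenol, OP). The daily dose was 0.3 mg/kg of every phthalate and 0.05 mg/kg of every alkylphenol. Exposure to the mixture or to the vehicles began in the womb, on post-coital day 0.5 of the mothers, and lasted until the testes were taken. RNA from the decapsulated testes was pooled within each group in equal amounts (3 biological replicates, counted as treated mothers), so each condition is 1 library and the spread between animals cannot be seen. Any p below compares the libraries, not the conditions, and intervals cover the counting error of reads alone. Molecular identifiers were not described, and copies of 1 molecule made by PCR are not independent reads.

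MicroRNAs of the miR-7 family are among the most conserved in animals and are best known from neurons and from endocrine cells of the pituitary and the pancreatic islets. A microRNA hairpin is cut into a 5p and a 3p arm, and the arm that is loaded into Argonaute recognises mRNAs mainly through its seed, the bases near its 5′ end. Targets of miR-7-5p described in mammals and flies include components of growth factor signalling such as the EGF receptor pathway. In the brain the circular RNA Cdr1as holds many miR-7 sites, miR-671-5p guides the cutting of Cdr1as, and the long non-coding RNA Cyrano directs the decay of miR-7. Mice without the second miR-7a hairpin are known to be infertile, with low gonadotropins of the pituitary.

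The mature sequences show which reads of the family can be told apart, and are printed 5′ to 3′ as RefSeq gives them for GRCm38.p6, with the seed (bases 2 to 8) in capitals. The 5p arms come first.
miR-7a-5p: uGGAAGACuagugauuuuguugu
miR-7b-5p: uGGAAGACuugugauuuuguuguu
miR-7a-1-3p: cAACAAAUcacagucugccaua
miR-7a-2-3p: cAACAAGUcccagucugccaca
miR-7b-3p: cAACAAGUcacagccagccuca
All 5 members were matched in the RefSeq table. Both 5p arms carry the seed GGAAGAC, which no other mature miRNA among the 1679 names of the table had. miR-7a-2-3p and miR-7b-3p shared the seed AACAAGU, and miR-7a-1-3p stood alone with AACAAAU. Counted from the 5′ end, miR-7a-5p and miR-7b-5p differed by 1 base over 23 positions, A10U, which lies outside the seed. The 3p arms of the miR-7a hairpins differed at 3 of 22 positions, by A7G in the seed and by A10C and U21C outside it. miR-7b-3p differed from miR-7a-1-3p at 5 positions and from miR-7a-2-3p at 4.

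The hairpins are shown because miR-7a-5p is cut from 2 of them and its mature sequence does not tell which. The mature arms are in capitals.
Mir7-1: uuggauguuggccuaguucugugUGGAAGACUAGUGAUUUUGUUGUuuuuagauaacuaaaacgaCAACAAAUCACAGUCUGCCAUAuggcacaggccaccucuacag
Mir7-2: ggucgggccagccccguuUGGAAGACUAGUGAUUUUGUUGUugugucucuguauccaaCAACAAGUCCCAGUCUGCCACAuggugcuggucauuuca
Mir7b: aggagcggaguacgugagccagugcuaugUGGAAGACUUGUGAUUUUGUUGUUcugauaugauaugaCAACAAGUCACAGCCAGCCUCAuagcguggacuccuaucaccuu
Mir7-1 lies on the minus strand of chr13:58392779-58392886 in GRCm38, the assembly named mm10. It sits within Hnrnpk, which encodes an RNA-binding protein, on the same strand and outside every exon of this gene in GENCODE M21. Mir7-2 lies on the plus strand of chr7:78888277-78888373, with no other gene of GENCODE M21 overlapping it on either strand, and 7481 bases from Aen, the nearest gene. Mir7b lies on the plus strand of chr17:56242988-56243098, also with no overlapping gene in GENCODE M21, 183 bases from the long non-coding RNA gene AC026385.1 and 13712 bases from Fem1a, the nearest protein-coding gene. The run that Mir7-1 and Mir7-2 share around miR-7a-5p is 24 bases long: the whole mature sequence and 1 base after it. A read inside that run fits both hairpins equally, and of the mature arms of miR-7a only the 3p arms carry bases of their own.

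The count tables gave 550261 mature miRNA reads for control and 501539 for exposed mice. The labelled tissue showed in its markers: 6 miRNAs of male germ cells, led by miR-34c-5p, took 20.6% of the reads in control and 19.8% in exposed mice, and miR-122-5p of the liver had 0 and 1 reads. Scaling used DESeq's median of ratios, with factors of 1.07 and 0.937. An exact binomial test (2-sided) was run on the 484 miRNAs whose reads summed to 10 or more, with Benjamini-Hochberg adjustment over all 484. To be called, a miRNA needed both an adjusted p under 0.05 and a log2 ratio (exposed over control) of 0.5 or more in either direction.

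Expression of the family rested on miR-7a-5p. Its 2702 reads in control and 2590 reads in exposed mice made up 0.491% (95% Clopper-Pearson interval 0.473 to 0.510%) and 0.516% (0.497 to 0.537%) of all mature miRNA reads. This placed it at rank 46 of the 1905 mature miRNAs in the control library and at rank 41 in the other. It held 98.97% of the reads of the 5 members in control mice and 98.8% in exposed mice. The remaining 4 members together had 28 and 32 reads.

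miR-7a-1-3p, the 3p arm of the hairpin in Hnrnpk, followed with 14 and 22 reads, or 25.4 (13.9 to 42.7) and 43.9 (27.5 to 66.4) RPM (reads in 1000000 mature miRNA reads). miR-7b-5p had 10 and 8 reads, or 18.2 (8.71 to 33.4) and 15.95 (6.89 to 31.4) RPM. miR-7a-2-3p had 4 and 2 reads, or 7.27 (1.98 to 18.6) and 3.99 (0.483 to 14.4) RPM. miR-7b-3p had 0 reads in both, for which a limit of 3 reads of the total is 5.45 RPM in control and 5.98 in exposed mice. The Clopper-Pearson upper limits, as used for the other members, are 6.70 and 7.36 RPM. The order of the levels was thus the same in both libraries. Below miR-7a-5p, the intervals of neighbours in that order overlapped in each library. Overlap alone does not settle whether 2 levels differ, and the order of these members was not tested.

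**Figure D1:**
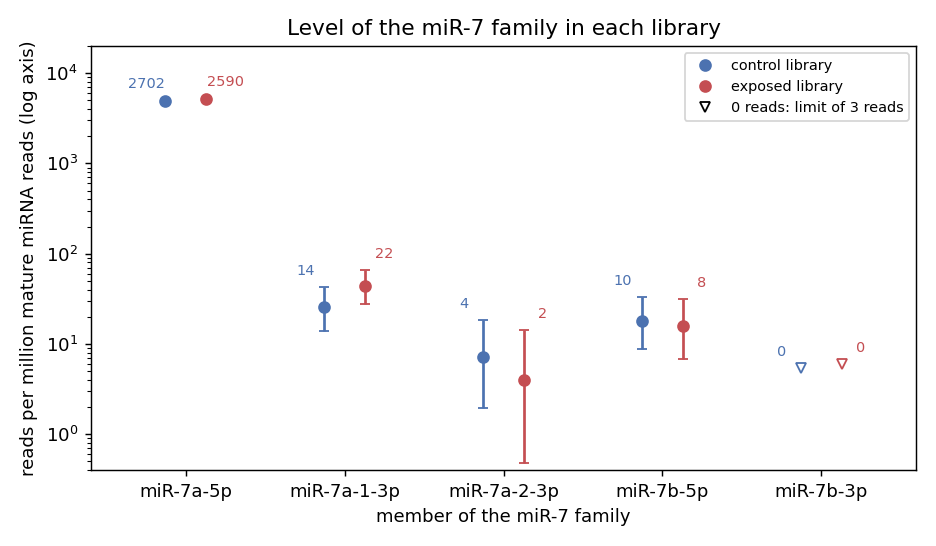
Level of each miR-7 member in control (blue) and exposed mice (red), in RPM (reads in 1000000 mature miRNA reads) on a log axis, with 95% Clopper-Pearson intervals and the read counts printed beside the points. miR-7a-5p stands at 4910 and 5164 RPM, while no other member passes 43.9; triangles mark the limit that 0 reads of miR-7b-3p allow.

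None of the 3 tested members was called higher or lower in exposed mice, against 2.89% of all 484 tested miRNAs. The other 2 members, miR-7a-2-3p and miR-7b-3p, had too few reads to be tested. The median log2 ratio of the 3 was 0.13, and that of all tested miRNAs was −0.04.

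For miR-7a-5p, the normalised reads were 2533 in control and 2763 in exposed mice, a ratio of 1.09 (1.03 to 1.15). On the log2 scale this is 0.13 (0.05 to 0.20, adjusted p = 0.0114, exact binomial test), far under the size minimum. Without a size minimum it was thus higher by this exact binomial test. By that rule 17.6% of the tested miRNAs differed, 8.26% being higher and 9.3% lower. This depended on the scaling: with scaling by total reads the log2 ratio was 0.07 (−0.01 to 0.15, adjusted p = 0.21), and without the 10 most abundant miRNAs in the total it was 0.10 (0.02 to 0.18, adjusted p = 0.0696). With edgeR's TMM it was 0.15 (0.08 to 0.23, adjusted p = 0.00107). Under these scalings 7.02%, 7.23% and 9.71% of the tested miRNAs were higher at any size. The 4 scalings differ from each other by up to 0.08 on the log2 scale, an amount comparable to the difference itself. The log2 ratios of the 317 miRNAs with at least 50 reads had an SD of 0.29. Of the 42 miRNAs with more reads than miR-7a-5p, 21 lay at least as far from 0 and 21 lay closer to it.

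The way reads of shared sequences were counted also bears on this value. All alignments of the best kind were kept by the authors, and a read of the mature miR-7a-5p sequence fits both Mir7-1 and Mir7-2. If each read had been counted at both hairpins, the true numbers would be 1351 and 1295, the log2 ratio would remain at 0.13 with an interval of 0.01 to 0.24, and the adjusted p would be 0.114. The counts of miR-7a-5p were even in both libraries. This alone shows little, as 7 of 29 miRNAs with 2 hairpins and at least 10 reads had even counts in both, and so did 99 of 373 with 1 hairpin. Another 22 of those 29 had an odd count in at least 1 library, so that for them not every read can have been counted at both hairpins.

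miR-7a-1-3p had 13.1 normalised reads in control and 23.5 in exposed mice, for a log2 ratio of 0.84 (−0.19 to 1.92), and the exact binomial test gave an adjusted p of 0.275. In the study miR-7a-1-3p was picked from these libraries for RT-qPCR as a miRNA taken to be steady. The study also measured it by RT-qPCR, and that result was not analysed and is not reported here. At 36 reads in all, the counts allow anything from a level slightly below that of control to a 3.78-fold higher one. Over all depths, 47 of the tested miRNAs (9.71%) had a log2 ratio at least as large in size. miR-99b-5p, picked beside it for the same purpose, had 2831 and 2196 reads. Its log2 ratio was −0.18 (−0.26 to −0.10, adjusted p = 0.000121, exact binomial test), under the size minimum. The 0.84 of miR-7a-1-3p was above the size minimum, but its adjusted p was not under 0.05.

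miR-7b-5p had 9.37 and 8.53 normalised reads, for a log2 ratio of −0.14 (−1.68 to 1.36), and the adjusted p was 1 by the exact binomial test. The counts allow anything from 0.312 to 2.56 times the level of control. For miR-7a-2-3p the log2 ratio of its 4 and 2 reads was −0.81 (−4.28 to 1.99). Directions of these members are not resolved at this depth.

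**Figure D2:**
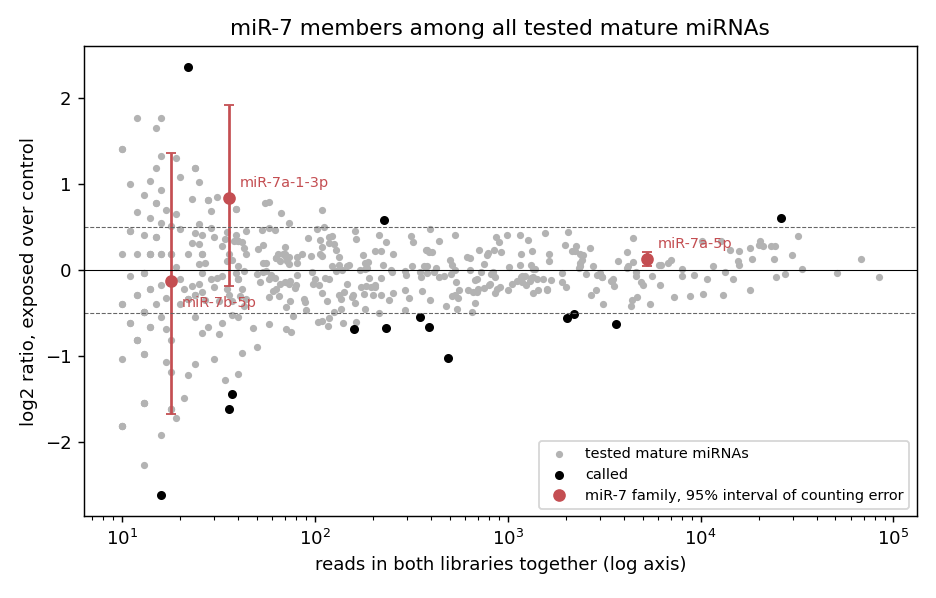
Log2 ratio of exposed to control mice (vertical axis) against the reads of both libraries together (log axis) for the 484 tested miRNAs, with the 14 called ones in black, the tested miR-7 members in red with 95% intervals, and dashed lines at the size minimum of 0.5. miR-7a-5p lies at 0.13 among miRNAs close to 0, and the intervals of miR-7a-1-3p (0.84) and miR-7b-5p (−0.14) reach over 0.

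**Figure D3:**
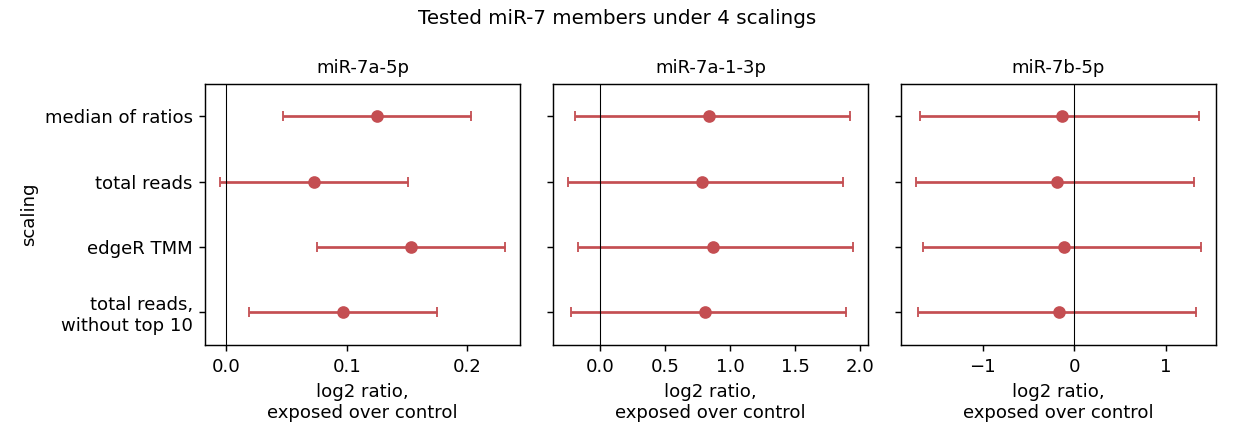
Log2 ratio of exposed to control mice of each tested miR-7 member (points, with 95% intervals) under 4 scalings; each panel has its own horizontal axis. The points of miR-7a-5p lie between 0.07 and 0.15 and those of miR-7a-1-3p between 0.79 and 0.87, whereas miR-7b-5p lies between −0.19 and −0.11.

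Within the family, a comparison of members inside a library needs no scaling. miR-7b-5p made up 0.369% of the reads of both 5p arms in control mice (10 of 2712, interval 0.177 to 0.677%) and 0.308% in exposed mice (8 of 2598, 0.133 to 0.606%). The intervals overlap widely. A read of miR-7a-5p that carries A10U matches the start of miR-7b-5p exactly, and up to 3 mismatches were allowed in the alignment. How many of the 18 reads of miR-7b-5p are of this kind was not tested.

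Of the miR-7a counts, only those of the 3p arms name a hairpin. Among these 3p reads miR-7a-1-3p took 14 of 18 in control mice (77.8%, interval 52.4 to 93.6%) and 22 of 24 in exposed mice (91.7%, 73.0 to 98.97%). In both libraries, then, most 3p reads carried the sequence of the hairpin in Hnrnpk, and these shares overlap as well. The share of miR-7a-5p that comes from each hairpin cannot be read from these counts, since the arms of different hairpins need not be kept in equal ratio.

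The balance of the arms was compared over the 158 miRNAs with at least 10 reads in each arm, with a 2-sided Fisher's exact test adjusted over all of them. The 5p arm of miR-7a took 99.3% of its reads in control mice (2702 of 2720, interval 98.96 to 99.6%) and 99.1% in exposed mice (2590 of 2614, 98.6 to 99.4%). There were thus 150 reads of the 5p arm for each 3p read in control mice and 108 in exposed mice. The adjusted p of this difference was 0.706 by Fisher's exact test, against a background of 9.49% of such miRNAs whose balance differed between the libraries. Over the 158 miRNAs the median share of the 5p arm was 59.2% in control and 60.7% in exposed mice. By this share miR-7a was at rank 11 in control and at rank 16 in exposed mice. For miR-7b, with 0 reads of its 3p arm, the balance could not be tested.

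**Figure D4:**
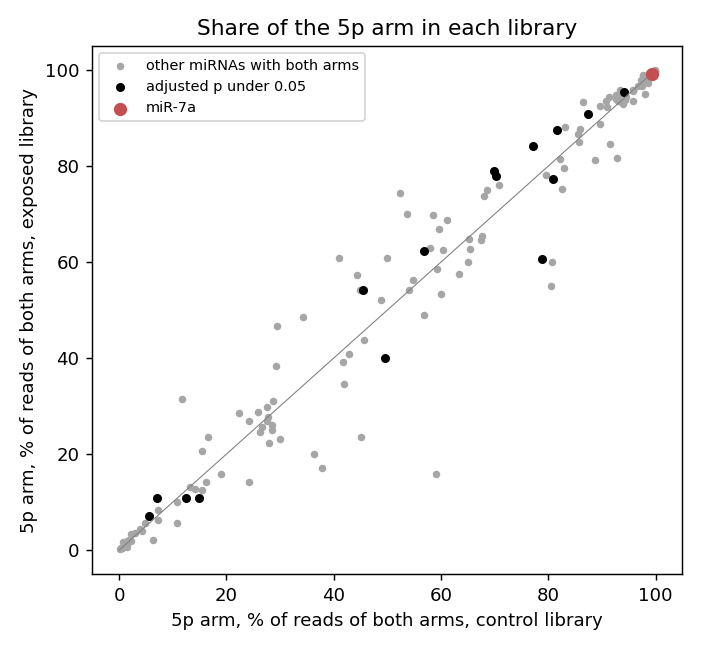
Share of the 5p arm among the reads of both arms, in percent, for control mice (horizontal axis) and exposed mice (vertical axis) for 158 miRNAs; the line marks equal shares and black points those with an adjusted p under 0.05. miR-7a (red) lies in the upper corner at 99.3% and 99.1%.

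The miRNAs just above and below each tested member in reads are single examples of that depth and do not show its usual scatter. Just above miR-7a-5p stood miR-25-3p, of the cluster with miR-106b, with 3276 and 2183 reads (log2 ratio −0.40). Just below it stood miR-99b-5p at −0.18. Around miR-7a-1-3p stood miR-378b (28 and 8 reads, −1.62), which was called, and miR-130a-3p (16 and 19 reads, 0.43), which was not. Around miR-7b-5p stood miR-6539 (14 and 4 reads, −1.62) and miR-28c (10 and 7 reads, −0.33), neither of which was called. Their likeness to the members is one of level over 2 libraries.

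miR-671-5p, which guides the cutting of Cdr1as, went from 13 reads in control to 3 in exposed mice, a log2 ratio of −1.93 (−4.38 to −0.07, adjusted p = 0.113, exact binomial test). miR-671-3p, from the other arm of the same hairpin, had 9 and 16 reads (1.02, −0.25 to 2.38, adjusted p = 0.299). Neither of them was called, and the arms pointed in opposite directions over few reads. Cdr1as and Cyrano themselves are long RNAs and were not measured by these counts.

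A list of 13 miRNAs known from neurons and endocrine cells, where miR-7 is abundant, was read in the same way. Of these, 9 were tested and none was called, with 4 above 0 and 5 below and a median log2 ratio of −0.04, the same as over all tested miRNAs. Without the size minimum 1 was higher and 1 lower. The shares over all tested miRNAs were 2.89% called, and 8.26% higher and 9.3% lower without the size minimum. miR-375-3p, which is abundant in islet and pituitary cells, was the lower one, with 1638 and 1225 reads (−0.23, −0.34 to −0.12, adjusted p = 0.000193, exact binomial test). miR-128-3p, of neurons, was the higher one, with 1195 and 1188 reads (0.18, 0.06 to 0.30, adjusted p = 0.0178). miR-9-5p had 453 and 351 reads (−0.18, −0.39 to 0.02), and miR-129-5p 299 and 213 (−0.30, −0.56 to −0.04, adjusted p = 0.0977). miR-218-5p pointed the other way, with 209 and 232 reads (0.34, 0.06 to 0.61, adjusted p = 0.0767), as did miR-9-3p (0.45, −0.47 to 1.38) and miR-212-5p (1.30, −0.19 to 2.98) over few reads. The neuronal miR-124-3p had 44 and 30 reads. In this tissue miR-7a-5p thus had more reads than each of these 13, by the counts as deposited. If its reads were counted at both hairpins, its 1351 reads in control would lie below the 1638 of miR-375-3p.

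Markers of further cell types in the testis were read as well. miR-202-5p, from somatic cells of the gonad such as Sertoli cells, had 2069 and 2106 reads (0.21), while miR-202-3p of the same hairpin was at 0.00 (−0.23 to 0.23). Of smooth muscle, miR-143-3p was at 0.13 and miR-145a-5p at 0.00 (−0.15 to 0.16), and miR-126a-3p of endothelium was at −0.18. The 2 markers of red blood cells had 118 and 133 reads in sum. Among the 6 germ cell markers the log2 ratios ran from −0.08 for miR-741-3p to 0.27 for miR-871-3p, around a median of −0.01. In whole testis a smaller share of 1 cell type and less of a miRNA per cell cannot be told apart, and the part of these cell types in the level of miR-7a-5p was not tested.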

How the data were processed

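RNA of pooled testes was prepared by Illumina protocols and read on a MiSeq in single-end mode at 65 nucleotides. The authors checked reads with FastQC, trimmed adapters with cutadapt, removed reads under 12 nucleotides, aligned the rest to mm10 with bowtie (up to 3 mismatches, all best alignments kept) and counted them with HTSeq on miRBase v21. For these tools the versions were not given in the sources used here. The deposited counts are whole reads per mature miRNA, not normalised. A line of ambiguous reads (0.528% of the control and 0.515% of the exposed library) was left out.

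Size factors, exact binomial tests, Clopper-Pearson intervals and Fisher's exact tests were computed with Python 3.11.15, scipy 1.17.1, numpy 2.4.6 and pandas 2.3.3, and TMM and an exact test with edgeR 4.0.16 in R 4.3.3. With 1 library per group no quasi-likelihood fit was possible. The methods were tested on simulated counts with counting error alone. Those counts hold no spread between animals or libraries, and their planted changes were all larger than the ratio of miR-7a-5p. Members, lists and the rule for named miRNAs (the members, 3 lists, the RT-qPCR partner, cell type markers and the nearest miRNAs in reads) were chosen with earlier results of these data known. miR-218-5p, miR-9-3p and miR-212-5p were named after their values were seen. miR-3529-5p and miR-3529-3p, also listed, for antisense overlap, were not among the counted mature miRNAs and could not be analysed. Of the 1905 names, 1621 matched the RefSeq miRNA table. The alternatives were other scalings, read and size minimums, a pseudocount of 0.5, edgeR's test and other ways of counting the arms.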

Additional observations from a re-analysis of the deposited data

How the results depend on the processing

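The count of called members stayed at 0 with each of the other scalings, and with no minimum of reads or one of 50. It was also 0 with a size minimum of 1.0, and with edgeR's exact test and a dispersion estimated over both libraries. Most of these settings could hardly add a call. A size minimum of 1.0 is stricter than 0.5, and the minimum of 50 reads left 1 member to test. A shift of 0.08 between scalings cannot bring miR-7a-5p to 0.5. In edgeR's test the dispersion takes in the difference between the libraries, and 0 of all 484 tested miRNAs were called. Without a size minimum in the exact binomial test, the count of called members was 1, miR-7a-5p. Added after seeing the data, the same without a size minimum gave 1 with TMM, and 0 with total reads, with total reads without the 10 most abundant miRNAs, and with the reads of miR-7a-5p halved. Of all 484 tested miRNAs, 14 were called, 85 without a size minimum (40 higher, 45 lower) and 0 by edgeR's exact test, where 5 had an unadjusted p under 0.05. With total reads 20 were called. No log2 ratio of a tested member changed sign under any scaling or with the pseudocount. The scalings differ by only up to 0.08 on the log2 scale, so these signs could hardly change. For miR-7a-1-3p and miR-7b-5p the direction stays unresolved. The log2 odds of the 5p arm of miR-7a (exposed over control) were −0.48, or −0.71 with the 3p arm of Mir7-1 alone (adjusted p = 0.51 by Fisher's exact test). The 3p arm of Mir7-2 alone had too few reads for this test. No paired analysis was possible because each group has 1 library. Depth limits the other members more than miR-7a-5p. For miR-7a-5p, halving the reads still changed whether it was higher without a size minimum.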
